A study of Bos taurus with 2 samples.

Results

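The miR-449 microRNAs were examined in small RNA sequencing libraries of collapsed and of normal lungs of neonatal cows. Rows of the deposited table were chosen by name alone: those for miR-449a, miR-449b, miR-449c or miR-449d, under any species prefix and for either arm of the precursor. This gave 6 of the 2271 rows used, a 5p and a 3p row each for miR-449a, miR-449b and miR-449c. The bovine names of the 5p rows state no arm, and their arm is read from the sequence. No row for miR-449d was among them, and it was not analysed here. There was 1 collapsed-lung library and 1 normal-lung library, each from 1 pool of total RNA (500 ng per sample) of 4 cows. The series text names neonatal cloned and normal cows, so the collapsed lungs are taken to be those of clones, although no label of that sample says so. The sources used here do not give an exact age, the breed or the donor cells of the clones. Pooling leaves no measure of the spread between cows, so no difference here has a replicate check, and cloning, lung collapse and the pools themselves cannot be told apart. In addition, fewer cells of a type and less RNA per cell cannot be told apart in whole lung. Reads in the table summed to 2822876 for collapsed lung and to 4550911 for normal lung.

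MicroRNAs (miRNAs) guide a silencing complex to mRNAs, mainly through a seed at bases 2 to 8 of the mature strand. The miR-449 precursors lie in an intron of CDC20B in human and mouse, and miR-449 is induced when airway progenitors become multiciliated cells, the cells whose beating cilia move mucus. In mouse airways, miR-449 and the miR-34 miRNAs, which share its seed, act together in the making of cilia, and miR-34b and miR-34c too are abundant in multiciliated cells. Known targets include Notch pathway and cell cycle mRNAs and CCP110, a protein that holds back cilium assembly. miR-34a, with the same seed, is a p53 target made in many cell types.

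In the RefSeq annotation of cattle (assembly ARS-UCD2.0, used for names and neighbours only, since the submitters' processing notes name the build bosTau8), MIR449A, MIR449B and MIR449C all lay within CDC20B. The nearest protein-coding genes on one side of CDC20B were MCIDAS and CCNO, which are known to drive multiciliated cell differentiation. MIR449D lay apart, within NAV2 on another chromosome. Only the first 3 therefore form the cluster.

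The mature sequences of the 5p rows are shown because they decide which reads could be shared between members and which targets they could pair with. They are given 5′ to 3′ as deposited, with T for U and the seed in capitals. Sequences of the 5p arm of miR-34a, miR-34b and miR-34c follow for comparison.
miR-449a: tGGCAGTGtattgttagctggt
miR-449b: aGGCAGTGtattgttagctggct
miR-449c: aGGCAGTGcatctctagctggct
miR-34a: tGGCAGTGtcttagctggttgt
miR-34b: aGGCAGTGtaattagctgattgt
miR-34c: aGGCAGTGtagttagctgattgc

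All 6 carried the seed GGCAGTG. Counted from 1 at the 5′ end, with the base of the first-named miRNA first, miR-449a and miR-449b differed by T1A and T22C over 22 bases, so 20 bases in a row from base 2 were identical. The deposited miR-449b sequence also has 1 more base at its 3′ end. miR-449a and miR-449c differed at 6 of 22 bases, by T1A, T9C, T12C, G13T, T14C and T22C. miR-449b and miR-449c differed at 4 of 23 bases, by T9C, T12C, G13T and T14C, all of them outside the seed. From base 2, miR-449a and miR-34c were identical for 9 bases. Of the 2271 rows, 9 (0.396%) had these 7 letters at bases 2 to 8, read on the strand of the miRNA only, and all 9 were miR-449 or miR-34 rows.

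The 3p rows are shown because, unlike the 5p rows, they share no seed.
miR-449a-3p: tCAGCTAAcatgcaactgctatc
miR-449b-3p: aGCCACAActgccctgccact
miR-449c-3p: cAGTTGCTagttgcactcccct
The names of the first and second of these rows are of mouse and of human miRNAs with base differences marked by the authors, and the third has a bovine name. The first and second names also carry end marks, L+1 and L-1. The seeds shown are counted from the 5′ ends as deposited and depend on those ends. By contrast, the 3p rows of miR-34b and miR-34c have the seed ATCACTA in common.

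miR-449a was by far the most abundant of the cluster, and the 3 measured miR-449 rows all had a lower level in the collapsed-lung library, by less than 2-fold. Over the whole table, 200 of 487 measured rows (41.1%) had a ratio below 1. Reads per 1000000 of a library (RPM) are given as levels. Intervals of ratios, levels and shares are exact 95% intervals that cover counting error only, since there is 1 library per group. They take each read as an independent count. PCR copies are not independent molecules, so the intervals may be too narrow even for counting error. miR-449a had 879.5 reads (312 RPM) in the collapsed-lung library, against 2074 reads (456 RPM) in the normal-lung library. The ratio of collapsed to normal was 0.684 (0.631 to 0.741), a level 1.46-fold lower. miR-449c had 78 reads (27.6 RPM) in the collapsed-lung library, against 176 reads (38.7 RPM) in the normal-lung library, a ratio of 0.714 (0.540 to 0.938). miR-449b had 55.5 reads (19.7 RPM) in the collapsed-lung library, against 117 reads (25.7 RPM) in the normal-lung library, a ratio of 0.765 (0.551 to 1.07). The intervals of miR-449a and miR-449c left out 1, and that of miR-449b included it. Of the 487 measured rows, 122 (25.1%) had an interval that lay below 1. A difference in miR-449b was therefore not detectable at this depth when libraries were scaled to their totals.

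**Figure D1:**
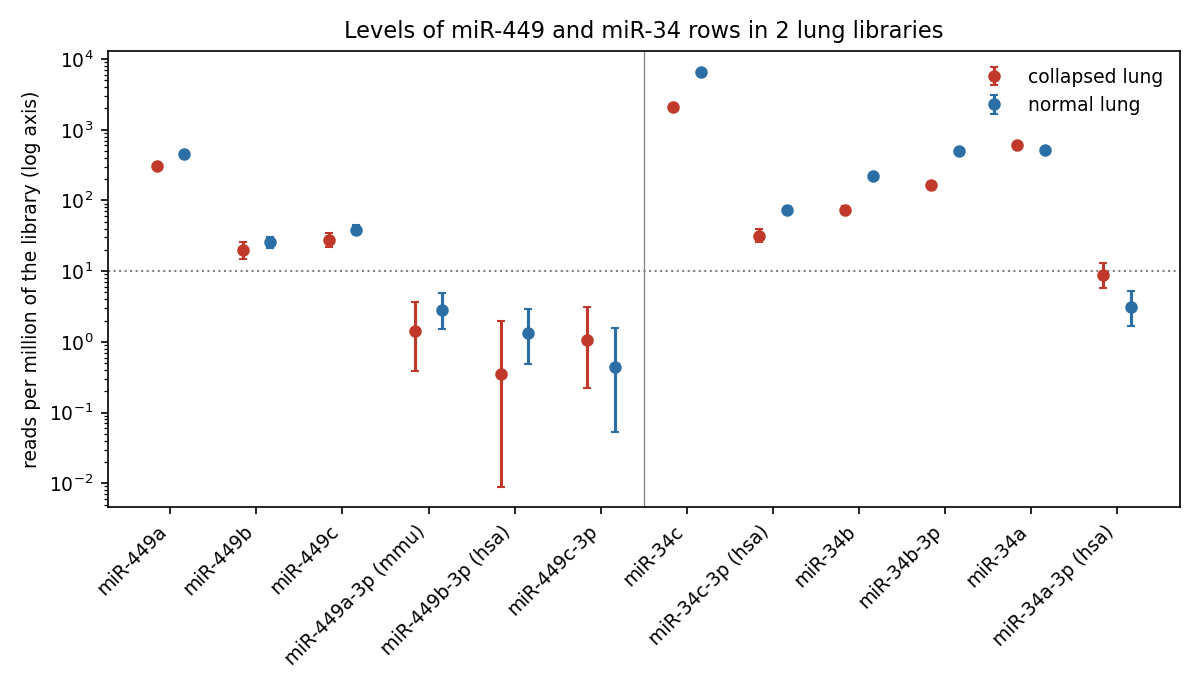
Level of each miR-449 row (left of the vertical line) and of 6 miR-34 rows (right of it) in RPM on a log axis, with the collapsed-lung library in red and the normal-lung library in blue; bars are exact Poisson 95% intervals of the reads and the dotted line marks 10 RPM. miR-449a stands at 312 RPM in collapsed and 456 RPM in normal lung, well above miR-449b and miR-449c, and the 3 miR-449 3p rows lie below the line.

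The 3p arms of the cluster were near the lower end of detection. The miR-449a-3p row had 4 reads in the collapsed-lung and 13 in the normal-lung library, the miR-449b-3p row 1 in collapsed and 6 in normal lung, and the miR-449c-3p row 3 in collapsed and 2 in normal lung. Their mean levels of 0.751 to 2.14 RPM lay under the minimum of 10 RPM used for a call, and the intervals of all 3 ratios included 1. Summed, the 3p rows had 8 reads in the collapsed-lung library and 21 in the normal-lung library, a ratio of 0.614 (0.235 to 1.44). A row with 3 reads has a level of 1.06 RPM in collapsed lung and of 0.659 RPM in normal lung.

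The mature strands of the cluster thus came almost entirely from the 5p arm. The 3p arms held 0.784% of miR-449 reads in the collapsed-lung library (0.339 to 1.54%) and 0.879% in the normal-lung library (0.545 to 1.34%). The arms of miR-34c were divided in much the same way. On its 3p arm lay 1.49% of its reads (1.20 to 1.83%) in the collapsed-lung library and 1.10% (0.983 to 1.22%) in the normal-lung library. The ratio of collapsed to normal was 0.436 (0.341 to 0.552) for the miR-34c 3p row, against 0.319 (0.310 to 0.328) for its 5p row. miR-34b stood apart. Its 3p arm held 64.1% of its reads (60.5 to 67.6%) in the collapsed-lung library and 64.7% (63.1 to 66.3%) in the normal-lung library. The 5p reads of miR-34b include a sequence under another species' name that differs from the miR-34c row only at its last base. Some 5p reads had also been divided between rows. The share of miR-34b thus depends on how reads were assigned to rows, which its intervals do not cover.

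Summed over the 6 rows, the cluster had 1021 reads (362 RPM) in the collapsed-lung library and 2388 reads (525 RPM) in the normal-lung library. The ratio was 0.689 (0.640 to 0.742), or 1.45-fold lower (1.35 to 1.56) in the collapsed-lung library. This interval left out 1 and also left out the 2-fold threshold.

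The balance within the cluster was alike in the 2 libraries, a comparison that needs no scaling. miR-449a, both arms added, made up 86.5% of miR-449 reads in the collapsed-lung library (84.3 to 88.6%) and 87.4% in the normal-lung library (86.0 to 88.7%). miR-449c made up 7.93% (6.35 to 9.76%) in the collapsed-lung library and 7.45% (6.43 to 8.58%) in the normal-lung library. miR-449b made up 5.53% (4.26 to 7.17%) in the collapsed-lung library and 5.15% (4.30 to 6.11%) in the normal-lung library. The order was miR-449a, miR-449c, miR-449b in both. The intervals of miR-449c and miR-449b overlapped in the collapsed-lung library and did not in the normal-lung library. Levels of different miRNAs also depend on how well each sequence is ligated to adapters, whose part in this order was not tested.

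The 3 pairs of 5p rows gave no difference between members beyond counting error. The ratio of miR-449b was 1.13 times that of miR-449a (0.797 to 1.58). The ratio of miR-449c was 1.04 times that of miR-449a (0.780 to 1.39), and that of miR-449b was 1.08 times that of miR-449c (0.697 to 1.67). These intervals still allow differences between members of up to 1.67-fold. The values of miR-449a and miR-449b in the collapsed-lung library, 879.5 and 55.5, are not whole, so some reads had been divided between rows of the deposited table. These values sum to 935, a whole number, as reads divided between miR-449a and miR-449b would give. Sharing with other rows was not tested. The shares and ratios of miR-449a and miR-449b thus depend on how reads were assigned to rows, which the intervals do not cover.

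Against the whole table, the cluster lay in the lower part of the range of ratios without passing the 2-fold threshold. A row was measured at a mean of at least 10 RPM, and it was called higher or lower at a ratio of at least 2 or at most 0.5 with an interval that left out 1. Calls in the whole table numbered 17 higher (3.49% of the 487 measured rows) and 14 lower (2.87%). The median-of-ratios and trimmed-mean scalings gave 15 higher with 19 and 20 lower. None of the 3 measured miR-449 rows was called. Their median log2 ratio was -0.49, against 0.09 for all measured rows, whose quartiles were -0.18 and 0.34. Only 41 measured rows (8.42%) had a lower ratio than miR-449a, 52 a lower one than miR-449c and 68 a lower one than miR-449b. The 41 include the 6 measured rows of miR-34b and miR-34c. Counts over the table are of rows and not of distinct miRNAs, since some names stand more than once with the same values. At a threshold of 1.5-fold, 35 rows (7.19%) were called lower, again with no miR-449 row among them. miR-449a was close to this bound, and other scalings took it past: with the same threshold, median-of-ratios factors called miR-449a lower (50 rows, 10.3% in all), and trimmed-mean factors called miR-449a and miR-449c lower (54 rows, 11.1%).

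**Figure D2:**
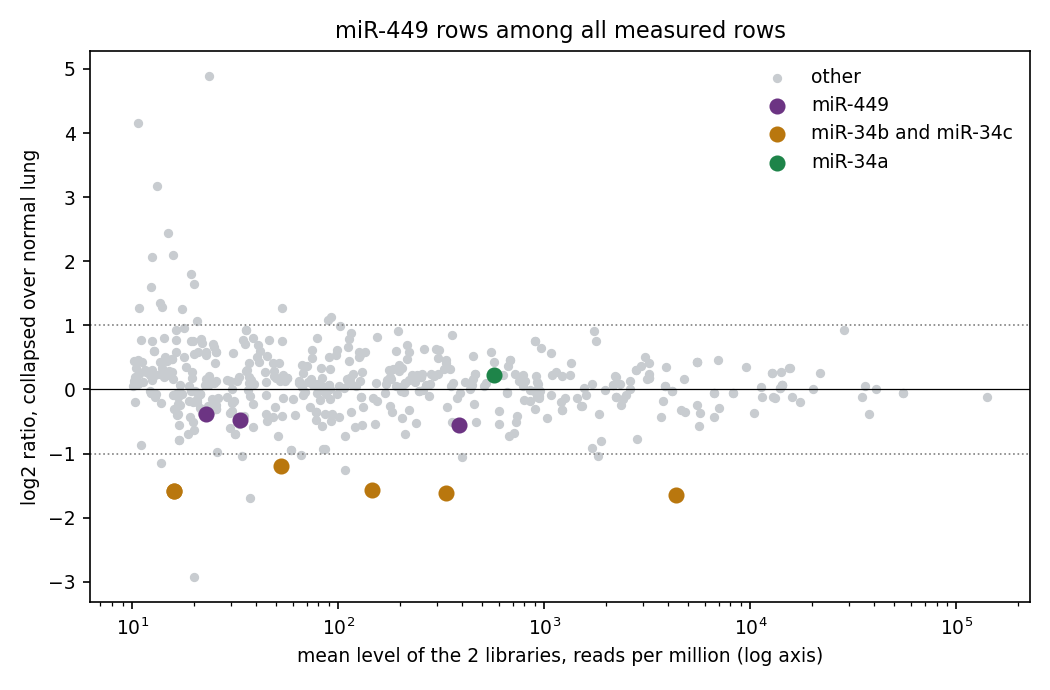
Log2 ratio of collapsed to normal lung against the mean level of the 2 libraries in RPM (log axis), 1 point per measured row (487 rows), with dotted lines at 2-fold. The 3 miR-449 rows (purple) lie between -0.55 and -0.39, inside the lines, the 6 miR-34b and miR-34c rows (orange, 2 of them at the same place) lie below the lower line and miR-34a (green) lies above 0.

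By abundance, miR-449a was row 161 of the 1750 with reads in the collapsed-lung library and row 141 of 1944 in the normal-lung library. miR-449c was row 356 in the collapsed-lung and 323 in the normal-lung library, and miR-449b was row 408 in the collapsed-lung and 361 in the normal-lung library. In the authors' deposited table, all 6 miR-449 rows stood in the section headed as not different. The log2 fold changes in the authors' deposited table were -0.68 for miR-449a, -0.61 for miR-449c and -0.51 for miR-449b.

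The miRNAs that share the seed and the cell type of the cluster differed more between the libraries. The bovine-named row of miR-34c, the most abundant of the seed family, had 5943 reads (2105 RPM) in the collapsed-lung library. It had 30018.5 reads (6596 RPM) in the normal-lung library, a ratio of 0.319 (0.310 to 0.328). Summed over its rows, miR-34b had 722 reads (256 RPM) in the collapsed-lung library and 3522.5 reads (774 RPM) in the normal-lung library. The ratio of this sum was 0.330 (0.305 to 0.358). Within it, the bovine-named row with the shared seed had 207 reads (73.3 RPM) in the collapsed-lung library. That row had 995.5 reads (219 RPM) in the normal-lung library, a ratio of 0.335 (0.287 to 0.390). All 6 measured rows of miR-34b and miR-34c were called lower. They are among the 14 rows called lower of the 487 measured in the whole table (2.87%). The 6 rows of miR-34b and miR-34c are not independent, since 2 of them hold the same name, sequence and values and the 2 genes neighbour each other. miR-34a went the other way, with 1724 reads (611 RPM) in the collapsed-lung library and 2385 reads (524 RPM) in the normal-lung library, a ratio of 1.17 (1.09 to 1.24), and was not called. This ratio holds for scaling to library totals. Other scalings moved log2 ratios by -0.09 to -0.13, which brings that of this miR-34a 5p row, 0.22, nearer to no difference. The miR-34a 3p row had 25 reads in the collapsed-lung and 14 in the normal-lung library, a ratio of 2.88 (1.44 to 5.99). Its interval left out 1, but its mean level of 5.97 RPM lay under the minimum of 10 RPM for a call.

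The cluster thus stood nearer to its normal-lung level than miR-34b and miR-34c did, by a margin that does not depend on scaling. Summed over rows, miR-34b and miR-34c had 6.62 reads per miR-449 read in the collapsed-lung library and 14.2 in the normal-lung library. The ratio of the cluster was 2.14 times that of miR-34b and miR-34c (1.98 to 2.32). Set against miR-34c alone it was 2.15 (1.99 to 2.33), and against miR-34b alone 2.09 (1.87 to 2.33). Relative to miR-34a the cluster was lower, at 0.586 times its ratio (0.532 to 0.646). With 1 library per group these intervals compare 2 libraries and not 2 conditions.

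**Figure D3:**
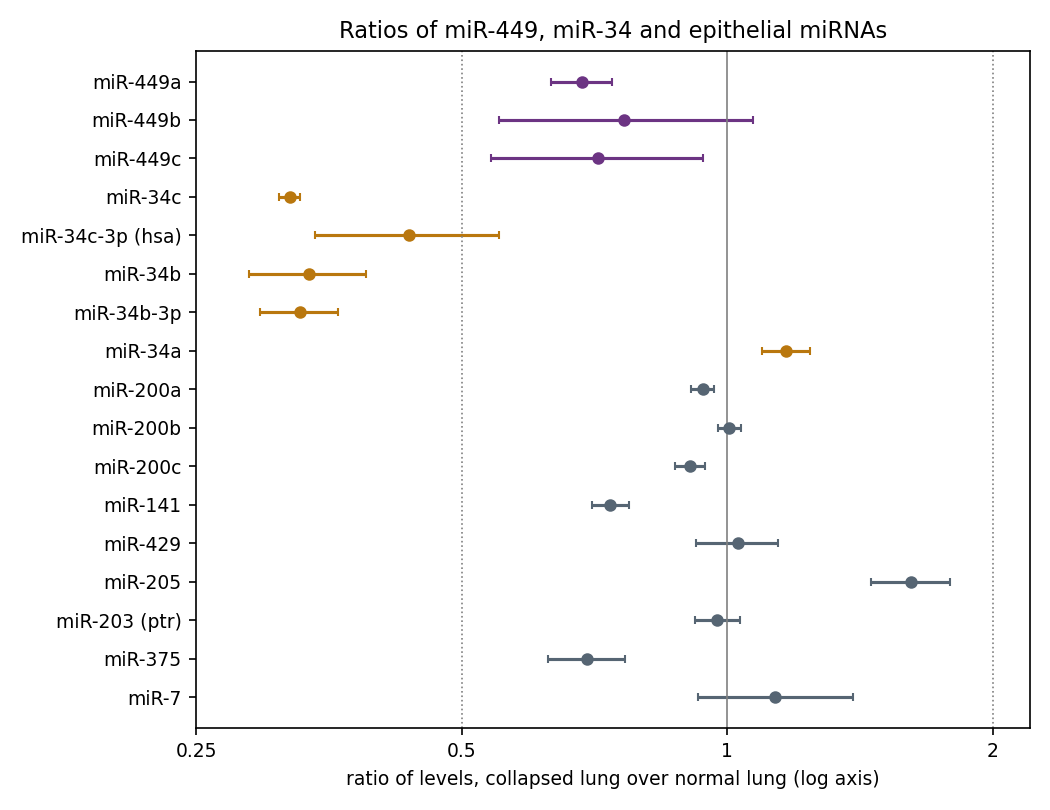
Ratio of collapsed to normal lung (log axis) with exact 95% counting intervals for miR-449 (purple), miR-34 (orange) and epithelial and neuroendocrine miRNAs (grey), with the solid line at 1 and dotted lines at 0.5 and 2. The miR-449 ratios of 0.684 to 0.765 lie between those of miR-34b and miR-34c, which are at most 0.436, and those of miR-200a, miR-200b, miR-200c and miR-429, which are 0.907 to 1.03, while miR-141 (0.737) and miR-375 (0.693) lie within the miR-449 range.

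Taken as a pool, reads with the seed GGCAGTG at bases 2 to 8 summed to 3167 RPM in collapsed lung, against 7913 RPM in normal lung, 2.50-fold lower (2.44 to 2.56). miR-34c accounted for 94.6% of this difference in RPM, and miR-449a, miR-449b and miR-449c together for 3.40%. The miR-449 miRNAs made up a larger part of the pool in the collapsed-lung library, 11.3% (10.68 to 12.01%), than in the normal-lung library, 6.57% (6.32 to 6.83%). miR-34c made up 66.5% of the pool in the collapsed-lung library and 83.4% in the normal-lung library. miR-34a made up 19.3% in the collapsed-lung library and 6.62% in the normal-lung library.

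**Figure D4:**
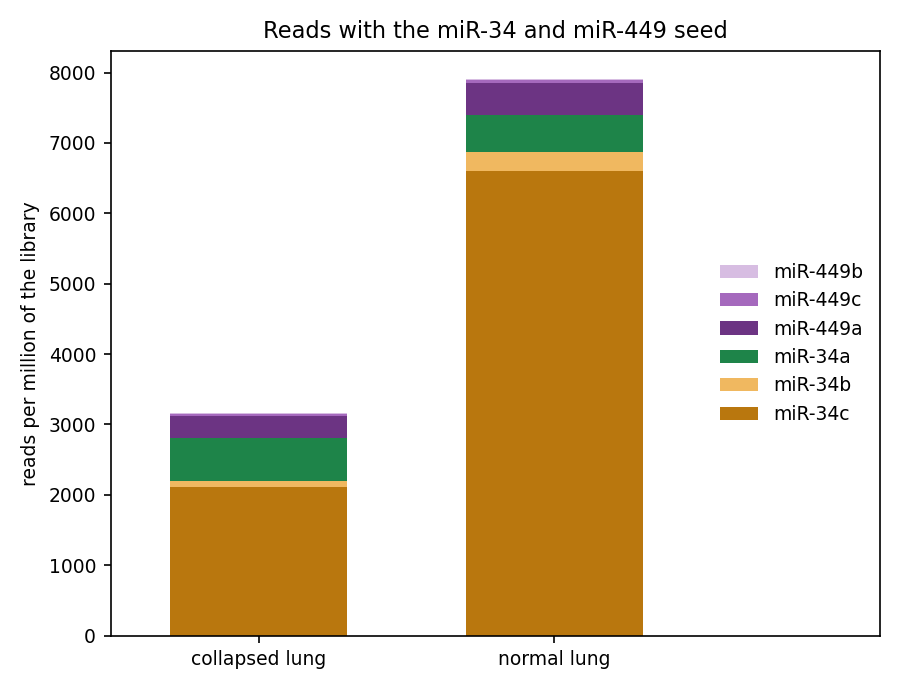
Level in RPM of reads with the seed shared by miR-34 and miR-449, stacked by miRNA, for the collapsed-lung library (left bar, 3167 RPM) and the normal-lung library (right bar, 7913 RPM). miR-34c makes up most of both bars, and the purple miR-449 part is 359 RPM in collapsed and 520 RPM in normal lung.

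Markers of epithelium in general, of basal and stratified epithelium and of neuroendocrine cells were set beside the cluster. The miR-200 family, which keeps the epithelial state, had 5 measured bovine rows with a median log2 ratio of -0.09, a range of -0.44 to 0.04 and no call. Their summed level was 7462 RPM in the collapsed-lung library and 8051 RPM in the normal-lung library. Within it, miR-141 was near the cluster, at a ratio of 0.737 (0.703 to 0.773), while miR-200b was at 1.01 (0.977 to 1.04). With rows of all species and both arms, there were 20.8 miR-200 family reads per miR-449 read in the collapsed-lung library and 15.5 in the normal-lung library. The ratio of the cluster was 0.744 times that of this family (0.689 to 0.802). miR-205, of basal airway cells, had 751 reads (266 RPM) in the collapsed-lung library and 750 reads (165 RPM) in the normal-lung library, a ratio of 1.61 (1.46 to 1.79), and was not called. miR-203, of stratified epithelium and present here under a chimpanzee name, was at 0.975 (0.920 to 1.03). Of the neuroendocrine markers, miR-375 was at 0.693 (0.626 to 0.766) and miR-7 at 1.13, neither of them called. The reads of miR-7 had been divided evenly over rows of the same name, with 168.67 in collapsed and 239.67 in normal lung per row. The interval of a single such row was 0.927 to 1.39. It is wider than all miR-7 reads would give, so it does not show whether miR-7 differed beyond counting error. The part of cell makeup in the miR-449 values was not tested.

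The 5 bovine-named measured rows outside the seed family with log2 ratios nearest to that of miR-449a, at -0.55, were miR-543 (-0.56), miR-375 (-0.53), miR-145 (-0.58), miR-147 (-0.52) and miR-223 (-0.51). miR-145 is a smooth muscle miRNA and miR-223 a myeloid one. Likeness here is the difference of a single ratio between 2 libraries, at most 0.035 on the log2 scale.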

How the data were processed

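Small RNA libraries of 1 collapsed-lung pool and 1 normal-lung pool were compared. Trizol extraction and a TruSeq small RNA kit were used, per the labels' protocols. The submitters' processing notes name the build bosTau8; for the aligner, trimming and miRNA database, the sources used here name nothing. The authors deposited raw read counts for each row, some divided between rows, and, per the file headers, a signal of normalized reads, a fold change (ratio), its log2 value and p-values from tests on the reads. The authors' normalized signal equals raw counts over 0.823 in the collapsed-lung and 1.21 in the normal-lung library. The authors' p-values compare 2 libraries and are not used. Of the table, 2 emptied lines were not analysed here.

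Reads were scaled to RPM of the table's totals. Ratios have exact conditional binomial intervals, ratios of ratios exact conditional intervals and shares Clopper-Pearson intervals (95%, scipy 1.17.1, Python 3.11.15), on reads rounded to whole numbers. Where a library had 0 reads, 0.5 read was added to both. No test between conditions was possible with 1 library per group. In sums, rows of the same name and sequence were added. The ratio code was tested on simulated data. Other scalings (median of ratios over measured rows, a trimmed mean of log ratios, the authors' normalized values), 5 added reads, other thresholds and narrower row choices were tried. Named miRNAs were all miR-449 and miR-34 rows, the marker lists and the 5 nearest ratios. Suffixes such as R+1 in deposited names are left out. The members and lists were chosen with earlier results of these data known.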

Additional observations from a re-analysis of the deposited data

How the results depend on the processing

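No paired analysis was possible because each group holds a single library. Other scalings moved log2 ratios by -0.09 (median of ratios), -0.12 (trimmed mean) and -0.13 (authors' values). The ratio of miR-449a became 0.643, 0.631 and 0.626 in that order, and that of the summed cluster 0.649, 0.636 and 0.631, against 0.684 and 0.689 with totals. The interval of miR-449b reached 1.01 with median-of-ratios factors and left out 1 with trimmed-mean factors (0.508 to 0.987) and the authors' factors (0.504 to 0.979). No miR-449 row was called at 2-fold under any of these. At 1.5-fold, a threshold combined with other scalings after the data were seen, 1, 2 and 2 miR-449 rows were called, against 0 with totals; the authors' factors called 54 rows (11.1%) lower in all. Counts over the table moved with filters by construction. They were 62 higher and 35 lower at 1.5-fold, 49 and 31 with no minimum, and 0 and 6 with a minimum of 100 RPM. With 5 reads added they were 17 and 11. Adding 5 reads put miR-449c at 0.739 and miR-449b at 0.799. Restricting sums to bovine names or to the 5p arm, or adding all rows as deposited, left the cluster ratio between 0.689 and 0.691. The margin over miR-34b and miR-34c was then 2.16 with bovine names and 2.16 with the 5p arm. Set against miR-34a or the miR-200 family, chosen after the data were seen, it was 0.586 and 0.744. Read depth limits the 3p arms and miR-449b most.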
